A study of Rattus norvegicus with 8 samples.

Results

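Expression of 38 genes of fatty acid oxidation and of the PPAR-alpha target program was examined in laser-captured rat liver cells. The genes were matched by name to the array's annotation, and all 38 had a probe. They were covered by 46 of the 45598 probes on the array, which carry 26949 distinct gene symbols. All 46 probes passed the filter on dim signals. Acaa1a, Acot12, Acot2, Acox3, Bdh1 and Hadha had several probes, of which the brightest was taken, and the probe taken was well above background on all 7 arrays with complete background marks for each of the 38 genes.

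The samples came from livers of F344 rats and fell into 3 groups. Mature hepatocytes (MHs, 2 samples) and clusters of small hepatocyte-like progenitor cells (control SHPCs, 3 samples) were cut with an ultraviolet laser from control recipient livers. SHPC clusters of the third group (BM-MC SHPCs, 3 samples) were cut from recipient livers that had received bone marrow-derived mesenchymal cells (BM-MCs). Per the study's methods, the recipients were female, had all been given retrorsine, which blocks division of mature hepatocytes, followed by partial hepatectomy, and the donor cells were injected through the spleen. The labels give the strain as DPPIV+ and the methods give the recipients as DPPIV-. The samples are not tied to animals in the labels, so some may share an animal, and every p-value here measures the spread between samples and may be too small. As a captured cluster can hold other cells, a smaller number of a cell type and less RNA per cell cannot be told apart.

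Fatty acids are activated to acyl-CoA, carried into mitochondria as acylcarnitines and shortened there by repeated cycles of dehydrogenation, hydration, a further dehydrogenation and thiolysis. Electrons of the first step pass through the electron transfer flavoprotein to the respiratory chain, and acetyl-CoA can leave the liver as ketone bodies. Very long and branched chains are shortened in peroxisomes. PPAR-alpha (Ppara), a nuclear receptor that binds fatty acids and pairs with the retinoid X receptor, switches on many of these genes in the fasted liver through a repeat of the hexamer AGGTCA.

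All 8 arrays shared 1 slide and 1 scan. By position on the slide they form a first set, which held both MHs with replicates 1 and 2 of the control SHPCs, and a second set, which held replicate 3 of the control SHPCs with all BM-MC SHPCs. Between 57.0% and 61.5% of spots were well above background, and 0 were saturated, with marks of control SHPC replicate 2 on 19479 of 58717 spots only, since its scanner file is incomplete and its signals were read from the deposited value table. Levels are log2 signals with the array's 75th percentile set to 0, and a level is compared between samples for 1 probe and never between probes. The 10 hepatocyte markers examined, among them Alb, Ttr and Hnf4a, were well above background on all 7 arrays with complete marks.

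Promoter windows of 300 bases, from 250 bases before to 50 bases after the annotated start, were matched in RefSeq (build GRCr8) for 33 of the 38 genes. There was no entry for Acadl, Acaa2, Decr1, Ech1 and Vnn1. The PPAR response element is a direct repeat of AGGTCA with 1 base between the copies, and was searched on both strands. A window with the repeat at all 12 fixed letters was found for 0 of the 33 genes and for 0.0538% of all 33469 windows. With 1 mismatch allowed it was found for 2 genes, Acadvl and Acot12, against 0.439% of all windows, and with 2 mismatches for 6 genes (18.2%) against 3.77%. These letters are a description and not evidence of binding, and a window without them says nothing about sequence outside it. Both windows are shown, 5′ to 3′ on the strand of the gene, because they are the closest matches among the genes described here. Capitals mark the match, which in Acadvl reads on the strand of the gene and in Acot12 on the opposite strand, with first bases at -17 and -105 relative to the start.
Acadvl (chr10:55236656-55236955, minus strand): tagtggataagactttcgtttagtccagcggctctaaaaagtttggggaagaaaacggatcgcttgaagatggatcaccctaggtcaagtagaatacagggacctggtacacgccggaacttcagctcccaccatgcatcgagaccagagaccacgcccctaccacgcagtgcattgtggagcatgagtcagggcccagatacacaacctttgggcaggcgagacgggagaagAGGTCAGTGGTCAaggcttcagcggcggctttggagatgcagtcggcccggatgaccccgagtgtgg
Acot12 (chr2:24721709-24722008, plus strand): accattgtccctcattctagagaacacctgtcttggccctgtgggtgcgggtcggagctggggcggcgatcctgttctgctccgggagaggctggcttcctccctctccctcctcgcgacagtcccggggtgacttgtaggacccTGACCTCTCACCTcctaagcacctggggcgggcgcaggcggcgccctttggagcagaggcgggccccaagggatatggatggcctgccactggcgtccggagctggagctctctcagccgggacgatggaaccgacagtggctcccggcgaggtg

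Other letters in these windows were also counted. The GC box letters GGGCGG, searched on both strands, were in 23 of the 33 windows (69.7%) against 33.1% of all windows. The median GC content was 59.7% against 51.7%. The letters CCAAT were in 13 windows (39.4%) against 37.5%, and TATAAA in 3 windows (9.09%) against 14.2%. The single hexamer AGGTCA was in 7 windows (21.2%) against 16.2%. The window of Ehhadh is shown as that of the peroxisomal gene described first below, with its GC box letters, on the opposite strand, in capitals. Hadha and Hadhb, which encode the subunits of the mitochondrial trifunctional protein, lie head to head with 301 bases between their starts, and the window of Hadha is shown with the 200 bases it shares with that of Hadhb in capitals.
Ehhadh (chr11:92746159-92746458, plus strand): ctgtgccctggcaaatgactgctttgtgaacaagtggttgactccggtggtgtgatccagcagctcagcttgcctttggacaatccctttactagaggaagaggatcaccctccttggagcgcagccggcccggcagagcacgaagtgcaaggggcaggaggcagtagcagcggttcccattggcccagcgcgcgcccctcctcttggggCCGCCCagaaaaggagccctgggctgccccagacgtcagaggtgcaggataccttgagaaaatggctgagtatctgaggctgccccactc
Hadha (chr6:31907551-31907850, plus strand): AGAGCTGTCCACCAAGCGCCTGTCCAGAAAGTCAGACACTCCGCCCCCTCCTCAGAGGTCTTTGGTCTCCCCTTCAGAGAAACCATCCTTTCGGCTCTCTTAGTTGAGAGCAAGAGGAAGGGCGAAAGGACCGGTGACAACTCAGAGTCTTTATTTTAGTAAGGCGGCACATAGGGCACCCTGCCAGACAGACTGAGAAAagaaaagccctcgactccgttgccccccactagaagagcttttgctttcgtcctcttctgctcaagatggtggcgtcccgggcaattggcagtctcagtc

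The first comparison asked whether BM-MC transplantation altered these genes in SHPCs. None of the 38 genes passed the adjusted threshold of 0.05 in limma with Benjamini-Hochberg adjustment, where 0.0216% of the 23111 tested probes did (5 probes). That number ran from 0 to 530 with 1 sample left out, and was highest without control SHPC replicate 3. At an unadjusted p under 0.05, 3 genes were higher with BM-MCs (Ehhadh, Acaa1b and Vnn1, 7.89%) against 10.7% of all probes, and 0 were lower against 5.92%. In 3 genes every BM-MC sample lay above every control (Ehhadh, Eci1 and Vnn1) against 13.1% of all probes, and in 1 gene every one lay below (Cpt2) against 11.7%. These shares were below those of all probes. The median log2 difference of the 38 genes was 0.11, against 0.018 over all tested probes, and 26 of 38 differences (68.4%) lay above 0, against 52.6%. When each array was scaled to its median the median of the 38 turned to -0.081, but that scaling moved the median of all probes by -0.19, and the 38 genes lay 0.093 above it under both scalings. They lay 0.19 above it with quantile normalization, and 0.019 below it without the filter on dim probes. With 1 sample left out the median of the 38 ran from 0.033 (without control SHPC replicate 1, against 0.0092 over all probes) to 0.19 (without control SHPC replicate 3, against 0.038). Against control SHPC replicate 3 alone, the only control in the second set of arrays, it was -0.050, against -0.021 over all probes. With 1 sample left out, 31 of the 38 differences moved by over 1.5 times under at least 1 omission and 11 turned in sign. In the comparisons described next these numbers were 23 and 9 for MHs against control SHPCs and 30 and 7 for BM-MC SHPCs against MHs.

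The second comparison set MHs against control SHPCs, which shared the control samples with the first. None of the 38 genes passed the adjusted threshold, against 1.13% of all probes (262 probes, and 55 to 289 with 1 sample left out). At an unadjusted p under 0.05, 7 genes were higher in MHs (Crat, Acox3, Ehhadh, Acaa1b, Acot2, Acot12 and Vnn1, 18.4%) against 11% of all probes, and 3 were lower (Etfa, Etfb and Etfdh, 7.89%) against 8.21%. In 11 genes both MHs lay above every control (28.9%) against 22.7% of all probes, and in 6 genes both lay below (15.8%) against 18.7%. The median difference was 0.057 against 0.032 over all probes. It was 0.12 within the first set of arrays, -0.016 without MH replicate 1 and -0.0068 without control SHPC replicate 1. The 38 genes lay 0.025 above all probes in the reported fit and 0.19 above them without the filter on dim probes. With quantile normalization and with normexp background correction alike they lay 0.090 above them.

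The third comparison set BM-MC SHPCs against MHs and shared samples with both others. None of the 38 genes passed the adjusted threshold, against 0.338% of all probes (78 probes, and 0 to 115 with 1 sample left out). At an unadjusted p under 0.05, 2 genes were higher in BM-MC SHPCs (Cpt1a and Acot1) against 7.33% of all probes, and 2 were lower (Crat and Pex11a) against 5.95%, each pair being 5.26% of the genes. The groups did not overlap in 6 genes with BM-MC SHPCs higher (15.8%, against 16.1%) and in 7 genes with BM-MC SHPCs lower (18.4%, against 16.3%). The median difference was 0.083 against 0.0030 over all probes, and it turned to -0.12, against -0.054, with the set of arrays as a block. With 1 sample left out it ran from 0.046 (without MH replicate 2) to 0.14 (without MH replicate 1). Scaling to array medians moved all probes by -0.20 and the 38 genes with them, to -0.11, and they lay 0.080 above all probes under both scalings. They lay 0.14 above them with quantile normalization, 0.040 above with normexp background correction and 0.11 below without the filter on dim probes.

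Most of these differences were bounded with respect to the spread between samples. No set of arrays held both MHs and BM-MC SHPCs, so for that comparison the intervals do not bound an offset between the sets. In each of the comparisons the 95% interval of limma lay within a 2-fold change in either direction for 32 of the 38 genes (84.2%), against 78.3%, 72.3% and 75.1% of all probes in the order given above. The median reach of the interval to each side was 0.36 for BM-MC SHPCs against control SHPCs and 0.39 for the other comparisons on the log2 scale. Acox2, Pdk4, Fgf21 and Vnn1 had intervals that reached a 2-fold change in every comparison. Ehhadh did so in both comparisons with control SHPCs, Pex11a in both with BM-MC SHPCs and Acot1 in both with MHs. All intervals are for single genes and are not adjusted for their number.

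**Figure D1:**
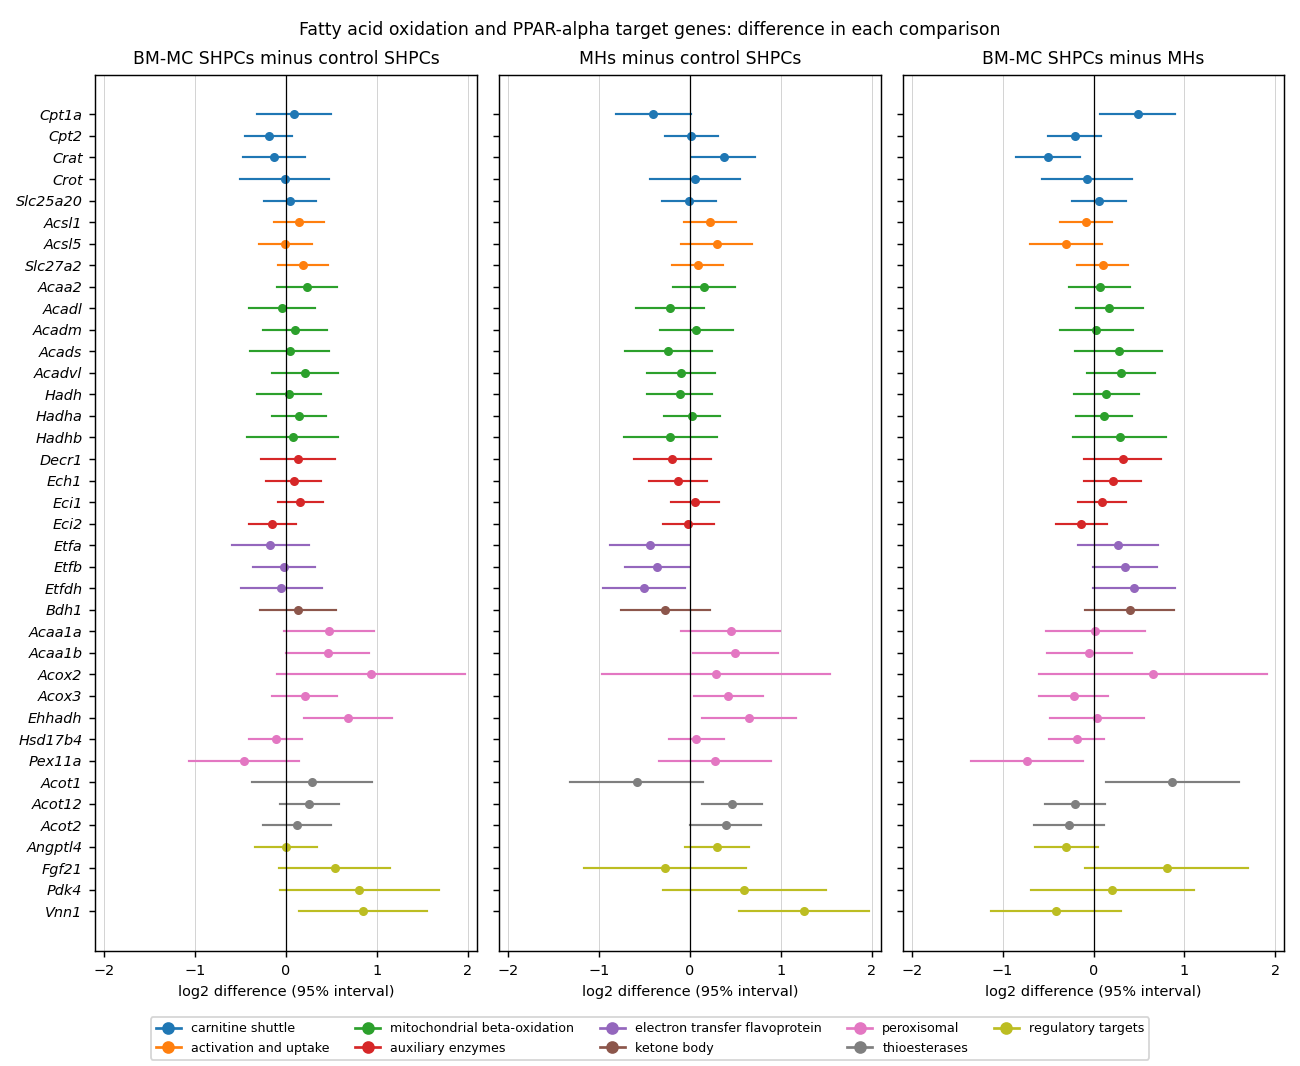
Log2 difference of each of the 38 genes (points) with its 95% interval from limma (lines) in the 3 comparisons, coloured by role, with a vertical line at 0. All 7 peroxisomal genes lie right of 0 and all 3 electron transfer flavoprotein genes lie left of it for MHs against control SHPCs, and no gene passed the adjusted threshold.

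The peroxisomal genes were above control SHPCs in MHs in 7 of 7 cases, with a median log2 difference of 0.42, and this held under every scaling tried, with medians from 0.42 to 0.51, and within the first set of arrays, at 0.52. With BM-MCs 5 of 7 lay above 0, with a median of 0.46, which was 0.26 with arrays scaled to their medians and 0.21 against control SHPC replicate 3 alone. None passed the adjusted threshold. Ehhadh, the bifunctional enzyme of the peroxisomal cycle and a classical PPAR-alpha target, was at 2.97 and 3.27 in MHs, at 2.33, 2.30 and 2.79 in control SHPCs and at 3.31, 3.32 and 2.84 in BM-MC SHPCs. Control SHPC replicate 3 and BM-MC SHPC replicate 3 lay close together, but no control reached the lowest BM-MC or MH sample. The means were 3.12 ± 0.21 (SD, n = 2), 2.47 ± 0.27 (SD, n = 3) and 3.16 ± 0.27 (SD, n = 3). The difference of BM-MC from control SHPCs was 0.68 (standard error 0.20, 95% interval 0.20 to 1.17, adjusted p = 0.21 from limma), a 1.61-fold level, and that of MHs from control SHPCs was 0.65 (standard error 0.22, 95% interval 0.13 to 1.16, adjusted p = 0.19 from limma). Against control SHPC replicate 3 alone the BM-MC difference was 0.37.

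Acaa1a and Acaa1b encode closely related peroxisomal 3-ketoacyl-CoA thiolases, whose probes may share signal. Acaa1b was at 4.67 and 4.47 in MHs, at 3.84, 4.05 and 4.32 in control SHPCs and at 4.67, 4.68 and 4.22 in BM-MC SHPCs. Replicate 3 again was the highest control and the lowest BM-MC sample, and there the order of the groups was turned. The log2 differences from control SHPCs were 0.46 with BM-MCs (adjusted p = 0.30 from limma) and 0.50 in MHs (adjusted p = 0.24 from limma). Acaa1a differed by 0.47 and 0.45, and its dimmer probe by 0.35 and 0.44. Its value in MHs was 0.24 without MH replicate 1 and 0.66 without MH replicate 2. Acox3, an acyl-CoA oxidase for branched chains, was at 4.69 and 4.49 in MHs and between 4.14 and 4.22 in controls, a difference of 0.42, but its dimmer probe gave -0.14.

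Acox2, the oxidase of bile acid side chains and branched chains, had the largest log2 difference with BM-MCs among the 38 genes, at 0.94 (standard error 0.43, 95% interval -0.099 to 1.97, adjusted p = 0.33 from limma). It was at -0.14, -0.26 and 0.51 in control SHPCs and at 0.16, 1.78 and 0.98 in BM-MC SHPCs, and at 0.96 and -0.32 in MHs. Its SD was 0.90 in MHs and 0.81 in BM-MC SHPCs, the widest of the 38 genes in both groups, and all groups overlapped. Without BM-MC SHPC replicate 2 the difference was 0.53, below the 0.88 of Vnn1. Hsd17b4, the other bifunctional enzyme of peroxisomes, differed by -0.11 with BM-MCs and 0.070 in MHs.

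Pex11a, which drives the division of peroxisomes, had the lowest log2 difference of the 38 genes in both comparisons of BM-MC SHPCs. It was at 2.74 and 2.90 in MHs, at 2.49, 2.41 and 2.73 in control SHPCs and at 2.52, 1.57 and 2.17 in BM-MC SHPCs. BM-MC SHPC replicate 1 lay among the controls, and all BM-MC samples lay below both MHs. The difference was -0.46 from control SHPCs (standard error 0.25, adjusted p = 0.39 from limma) and -0.74 from MHs (standard error 0.26, 95% interval -1.35 to -0.12, adjusted p = 0.33 from limma). Without BM-MC SHPC replicate 2 these differences were -0.20 and -0.48.

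Among regulatory targets, Vnn1, a pantetheinase of the hepatocyte surface and a sensitive PPAR-alpha target, had the largest log2 difference between MHs and control SHPCs of the 38 genes. Vnn1 was at 0.78 and 0.59 in MHs, at -0.66, -0.43 and -0.62 in control SHPCs and at 0.89, 0.22 and -0.29 in BM-MC SHPCs. The controls lay within a narrow range below every other sample, and the BM-MC samples spread from just above the controls to above the MHs. MHs differed from control SHPCs by 1.26 (standard error 0.31, 95% interval 0.54 to 1.97, adjusted p = 0.12 from limma), a 2.39-fold level. The difference was 1.23 within the first set of arrays. It passed the threshold with the MHs and control SHPCs alone in the fit (adjusted p = 0.027 from limma), with an intensity trend (adjusted p = 0.0496 from limma) and within the first set of arrays (adjusted p = 0.048 from limma). In those fits 1.25%, 2.42% and 1.8% of all probes passed. Over the 22 alternatives the adjusted p ran from 0.027 to 0.38. With BM-MCs the difference from control SHPCs was 0.85 (standard error 0.29, 95% interval 0.14 to 1.55, adjusted p = 0.25 from limma), and 0.54 without BM-MC SHPC replicate 1.

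Pdk4, the kinase that restrains pyruvate dehydrogenase during fasting, was at -2.39 and -2.05 in MHs, at -2.79, -2.70 and -2.97 in control SHPCs and at -2.02, -1.26 and -2.76 in BM-MC SHPCs. Both MHs lay above all controls, and BM-MC SHPC replicate 3 lay among the controls. Its log2 difference from control SHPCs was 0.81 with BM-MCs (standard error 0.36, 95% interval -0.071 to 1.68, adjusted p = 0.33 from limma) and 0.60 in MHs (standard error 0.38, adjusted p = 0.42 from limma). With BM-MCs it was 0.43 without BM-MC SHPC replicate 2.

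Fgf21, the fasting hormone of the liver, was at -2.88 and -1.70 in MHs, at -2.27, -2.34 and -1.45 in control SHPCs and at -1.36, -1.51 and -1.59 in BM-MC SHPCs. The BM-MC samples lay close together, and control SHPC replicate 3 lay among them, away from the other controls. The difference with BM-MCs was 0.54 (standard error 0.25, adjusted p = 0.34 from limma). Without control SHPC replicate 3 it was 0.82 and passed (adjusted p = 0.047 from limma), as did 2.29% of all probes, whereas against that control alone it was -0.036. Its adjusted p ran from 0.047 to 0.97 over 23 alternatives.

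Angptl4, an inhibitor of lipoprotein lipase, was at 4.58 and 4.62 in MHs, at 4.23, 4.36 and 4.31 in control SHPCs and at 4.45, 4.39 and 4.05 in BM-MC SHPCs. MHs lay above all SHPC samples, by 0.30 over control SHPCs (95% interval -0.047 to 0.65, adjusted p = 0.32 from limma). The difference with BM-MCs was -0.00057 (95% interval -0.34 to 0.34, adjusted p = 0.998 from limma).

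**Figure D2:**
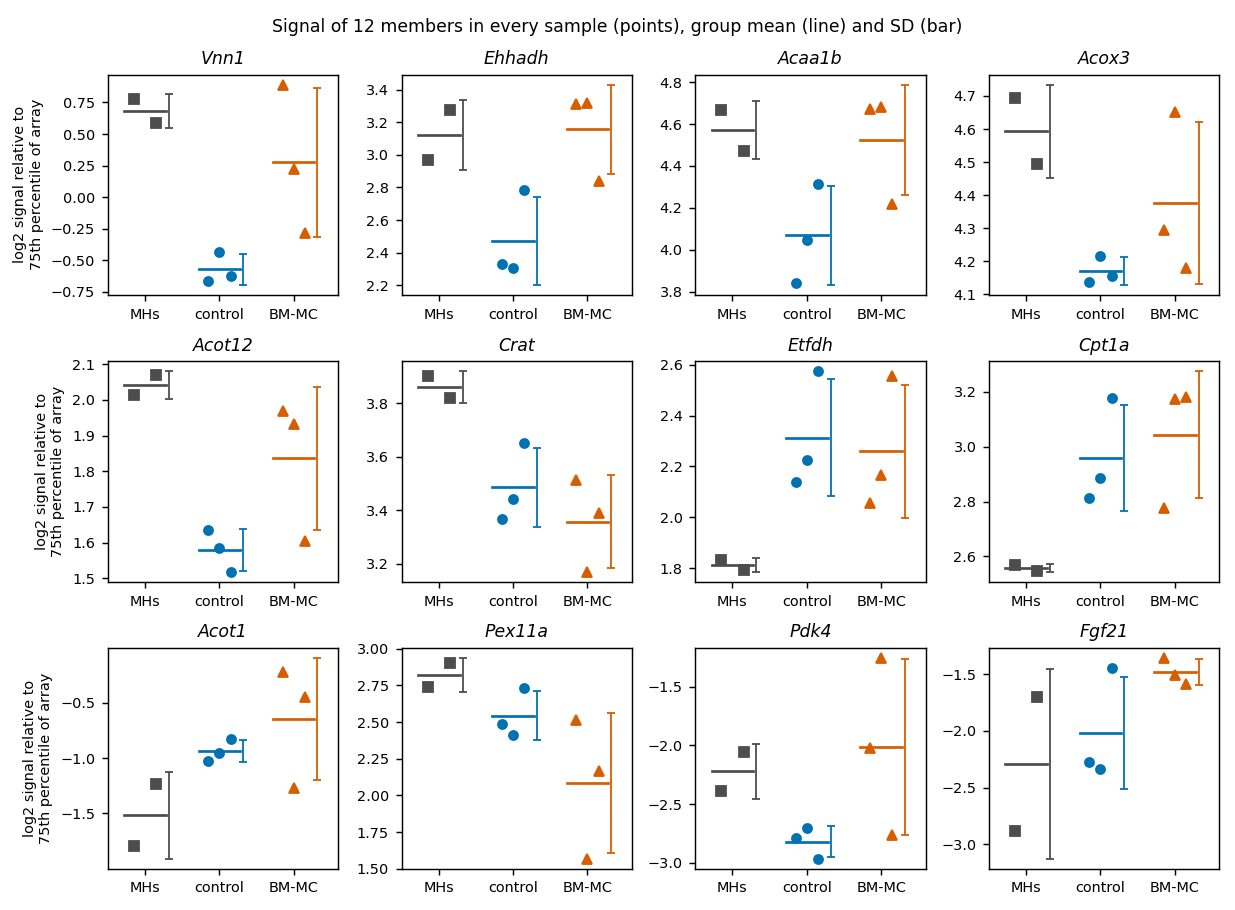
Log2 signal, with each array's 75th percentile at 0, for 12 of the 38 genes in every sample (squares, MHs; circles, control SHPCs; triangles, BM-MC SHPCs), in order of replicate, with the group mean as a line and the SD as a bar beside it. Vnn1 controls lie below all other samples, Etfdh and Cpt1a are lowest in both MHs, and each panel has its own vertical scale that does not start at 0.

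The thioesterases release free fatty acids from acyl-CoA. Acot12, the acetyl-CoA hydrolase of the cytosol, whose window is shown above, was at 2.01 and 2.07 in MHs, at 1.63, 1.58 and 1.52 in control SHPCs and at 1.97, 1.93 and 1.60 in BM-MC SHPCs. Both MHs lay above every SHPC sample, and BM-MC SHPC replicate 3 lay among the controls. MHs differed from control SHPCs by 0.46 (standard error 0.14, 95% interval 0.13 to 0.79, adjusted p = 0.16 from limma), and a further probe gave 0.48.

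Acot1, the cytosolic long-chain thioesterase, was at -1.79 and -1.24 in MHs, at -1.02, -0.95 and -0.82 in control SHPCs and at -0.22, -1.27 and -0.45 in BM-MC SHPCs. BM-MC SHPC replicate 2 lay below all controls and the other BM-MC samples above them. The difference of BM-MC SHPCs from MHs was 0.87 (standard error 0.31, 95% interval 0.14 to 1.60, adjusted p = 0.33 from limma), the largest of the 38 genes in that comparison. MHs differed from control SHPCs by -0.58, the lowest in that comparison (adjusted p = 0.35 from limma). Without MH replicate 1 it was -0.31 there, above the -0.52 of Etfdh, and 0.59 against MHs, below the 1.29 of Acox2. Acot2, its mitochondrial neighbour on chromosome 6, differed in MHs by 0.39 on its brighter probe and by -0.075 on its dimmer probe.

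The mitochondrial core of the pathway varied little between groups. The 8 genes of the beta-oxidation cycle had log2 differences between -0.046 and 0.23 with BM-MCs and between -0.24 and 0.16 in MHs against control SHPCs. All their 95% intervals lay within a 2-fold change in each comparison. Their median with BM-MCs was 0.086. It was 0.22 without control SHPC replicate 3 and turned to -0.15 against that control alone. With arrays scaled to their medians it was -0.11, a move shared by all probes (-0.19). Against MHs, the BM-MC SHPCs were above 0 in 8 of 8 genes, with a median of 0.16, which turned to -0.12 with the set of arrays as a block. Under median scaling, which moved all probes by -0.20, it was -0.041.

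Acadm, the medium-chain acyl-CoA dehydrogenase, was at 5.09 and 4.78 in MHs, at 4.69, 4.78 and 5.12 in control SHPCs and at 5.06, 4.87 and 4.97 in BM-MC SHPCs. Its groups overlapped throughout, and its difference with BM-MCs was 0.099 (95% interval -0.26 to 0.45, adjusted p = 0.75 from limma). With 1 sample left out it ran from 0.013 (control SHPC replicate 1) to 0.23 (control SHPC replicate 3). Hadha, the alpha subunit of the trifunctional protein, was at 4.94 and 4.81 in MHs, at 4.75, 4.81 and 5.0 in control SHPCs and at 4.87, 5.05 and 5.05 in BM-MC SHPCs. Its difference with BM-MCs was 0.14 (95% interval -0.16 to 0.43, adjusted p = 0.58 from limma), and its dimmer probes gave 0.096, 0.15 and 0.22. In MHs the brightest probe differed from control SHPCs by 0.025 and the dimmer probes by 0.030, -0.081 and -0.081. Hadhb, the beta subunit that starts from the same region, differed by 0.073 with BM-MCs and by -0.22 in MHs. Acadvl, the very long-chain dehydrogenase whose window is shown above, differed by 0.21 and -0.098.

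The auxiliary enzymes rearrange the double bonds of unsaturated fatty acids. Their 4 log2 differences with BM-MCs ran from -0.15 (Eci2) to 0.16 (Eci1). Every BM-MC sample of Eci1, the enoyl-CoA isomerase, lay above every control, but the step was small, with means of 5.08 ± 0.043 (SD, n = 3) and 4.92 ± 0.077 (SD, n = 3) and an adjusted p = 0.47 from limma. Decr1, the 2,4-dienoyl-CoA reductase, was at 4.22 and 4.43 in MHs, at 4.55, 4.36 and 4.63 in control SHPCs and at 4.59, 4.40 and 4.93 in BM-MC SHPCs. Its groups overlapped, with differences from control SHPCs of 0.13 with BM-MCs (adjusted p = 0.72 from limma) and -0.19 in MHs (adjusted p = 0.59 from limma). The value in MHs was -0.087 without MH replicate 1 and -0.30 without MH replicate 2.

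The electron transfer flavoprotein genes were below control SHPCs in MHs in 3 of 3 cases, with log2 differences of -0.44 (Etfa), -0.37 (Etfb) and -0.50 (Etfdh). This direction held under every scaling tried, with medians from -0.50 to -0.35, and within the first set of arrays, at -0.34. None passed the adjusted threshold. Etfdh, the oxidoreductase that passes these electrons to ubiquinone, was at 1.83 and 1.79 in MHs, at 2.14, 2.22 and 2.57 in control SHPCs and at 2.06, 2.17 and 2.55 in BM-MC SHPCs. Both MHs lay below every SHPC sample, and replicate 3 was the highest of both SHPC groups. The difference of MHs from control SHPCs had a standard error of 0.19, a 95% interval of -0.95 to -0.047 and an adjusted p = 0.23 from limma. The difference of BM-MC SHPCs from MHs was 0.45 (95% interval -0.0045 to 0.90, adjusted p = 0.38 from limma), and 0.056 with the set of arrays as a block. The median of the 3 genes in that comparison was 0.34, and it was 0.14 with arrays scaled to their medians and 0.038 with that block, where 2 of 3 were above 0. Etfa was at 0.28 and 0.41 in MHs, at 0.73, 0.64 and 1.0 in control SHPCs and at 0.64, 0.34 and 0.87 in BM-MC SHPCs, so that BM-MC SHPC replicate 2 lay among the MHs. With BM-MCs it differed by -0.17 (adjusted p = 0.64 from limma), and by -0.034 without BM-MC SHPC replicate 2.

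In the carnitine shuttle, Cpt1a, the outer membrane enzyme that sets the rate of fatty acid entry, was at 2.57 and 2.55 in MHs, at 2.81, 2.88 and 3.18 in control SHPCs and at 2.78, 3.17 and 3.18 in BM-MC SHPCs. Both MHs lay below every SHPC sample. MHs differed from control SHPCs by -0.40 (standard error 0.17, 95% interval -0.81 to 0.0084, adjusted p = 0.27 from limma), and BM-MC SHPCs from MHs by 0.48 (standard error 0.17, adjusted p = 0.33 from limma). The latter was 0.16 with the set of arrays as a block. With BM-MCs the difference from control SHPCs was 0.084 (95% interval -0.32 to 0.49, adjusted p = 0.82 from limma), and -0.14 against control SHPC replicate 3 alone.

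Crat, the acetylcarnitine transferase, was at 3.90 and 3.82 in MHs, at 3.37, 3.44 and 3.65 in control SHPCs and at 3.51, 3.17 and 3.39 in BM-MC SHPCs. Both MHs lay above every SHPC sample, by 0.37 over control SHPCs (adjusted p = 0.24 from limma) and with BM-MC SHPCs at -0.50 from MHs (standard error 0.15, 95% interval -0.85 to -0.15, adjusted p = 0.28 from limma). Cpt2, which rebuilds acyl-CoA in the matrix, was at 3.30 and 3.11 in MHs, at 3.13, 3.25 and 3.18 in control SHPCs and at 3.08, 2.89 and 3.02 in BM-MC SHPCs. Every BM-MC sample lay below every other sample, with a difference of -0.19 from control SHPCs (standard error 0.11, adjusted p = 0.41 from limma). Slc25a20, the carnitine-acylcarnitine carrier, and Crot, the peroxisomal octanoyl transferase, had differences between -0.067 and 0.058 in all comparisons.

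Of the genes of activation and uptake, Acsl1, the main acyl-CoA synthetase of liver, was at 6.23 and 6.14 in MHs, at 5.97, 5.90 and 5.99 in control SHPCs and at 6.08, 6.24 and 5.98 in BM-MC SHPCs. MHs lay above all controls, by 0.23 (95% interval -0.060 to 0.51, adjusted p = 0.35 from limma), and BM-MC SHPC replicate 3 lay among the controls. Slc27a2 and Acsl5 differed with BM-MCs by 0.19 and -0.0075. Bdh1, which converts acetoacetate to 3-hydroxybutyrate, was at 2.03 and 1.58 in MHs, at 1.89, 2.01 and 2.31 in control SHPCs and at 1.95, 2.23 and 2.42 in BM-MC SHPCs. Its groups overlapped in every comparison, with a difference of 0.13 with BM-MCs (adjusted p = 0.73 from limma) and -0.27 in MHs (adjusted p = 0.51 from limma). The latter was -0.044 without MH replicate 2 and -0.49 without MH replicate 1. Its dimmer probe gave -0.015 and -0.24.

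Replicate 3 stood apart within the control SHPCs. It was the highest of the 3 controls in 30 of the 38 genes (78.9%), against 46.2% of the 22969 tested probes that had a value in all samples, and control SHPC replicate 1 was the lowest in 24 genes (63.2%), against 33.0%. The median difference of the 38 genes from the control mean was 0.15 in control SHPC replicate 3, -0.098 and -0.048 in replicates 1 and 2, and 0.049, 0.10 and 0.18 in the BM-MC samples. The mitochondrial beta-oxidation genes followed the same order, at 0.19 in control SHPC replicate 3 and 0.20 in BM-MC SHPC replicate 3. The peroxisomal genes did not, with medians of 0.12, 0.61 and 0.15 in BM-MC SHPC replicates 1, 2 and 3 and of 0.52 and 0.32 in the MHs. These medians are descriptions of single samples. Control SHPC replicate 3 was also the only control in the second set of arrays, so that its values and that position cannot be told apart.

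Markers of other cell types also varied between the samples. The summed signal of the 10 Kupffer cell and macrophage markers, all well above background on the 7 arrays with complete marks, was at 6.49 to 6.59 in MHs, 5.54 to 6.07 in control SHPCs and 5.85 to 6.37 in BM-MC SHPCs on the log2 scale. It was lowest in control SHPC replicate 3 and, among BM-MC samples, in replicate 3. Of the 10 markers, 9 were above control SHPCs in MHs, with a median log2 difference of 0.64, against 53.8% of all probes above 0, and 7 had an unadjusted p under 0.05, against 11% of all probes. Of the 10 hepatocyte markers, 9 lay below control SHPCs in MHs and 1 above, against 53.8% of all probes above 0, with a median log2 difference of -0.13. Apoa1 (-0.73), Cps1 (-0.92) and Tat (-1.04) were lower at an unadjusted p under 0.05, against 8.21% of all probes. With BM-MCs 9 of the 10 lay below control SHPCs and 1 above, against 52.6% of all probes above 0, with a median of -0.11. None had an unadjusted p under 0.05, against 10.7% of all probes higher and 5.92% lower. Against MHs, Apoa1 (0.57) and Tat (1.02) were higher in BM-MC SHPCs at an unadjusted p under 0.05, against 7.33% of all probes. The summed signal of the 5 tested erythroid markers (of 7) was at 2.77 and 3.71 in MHs, at 3.59, 3.53 and 5.27 in control SHPCs and at 2.35, 2.39 and 2.87 in BM-MC SHPCs, so that every BM-MC sample lay below every control and control SHPC replicate 3 was the highest. With BM-MCs 4 of the 5 lay below control SHPCs without overlap, against 11.7% of all probes, with a median log2 difference of -1.30, and 3 had an unadjusted p under 0.05, against 5.92%. The 3 tested granulocyte markers (of 6) lay below control SHPCs with BM-MCs without overlap in 3 of 3 cases, against 11.7% of all probes. Their median log2 difference was -1.46, and 3 had an unadjusted p under 0.05, against 5.92%. The lowest adjusted p was 0.068 from limma. Their summed signal was at -1.34 and 0.59 in MHs, at 0.26, 0.65 and 0.17 in control SHPCs and at -1.33, -1.46 and -1.06 in BM-MC SHPCs. The summed signals of sinusoidal endothelial (8 of 10 tested) and of stellate and fibroblast markers (9 of 10 tested) ran from 4.24 to 4.57 and from 2.89 to 3.52 over all samples. At an unadjusted p under 0.05, 2 of the 9 stellate and fibroblast markers lay above control SHPCs in MHs and 3 below, against 11% and 8.21% of all probes, and 4 of the 9 lay above MHs in BM-MC SHPCs, against 7.33%. The summed signal of biliary markers (5 of 8 tested) was lowest in both MHs, at -1.50 and -1.81, and ran from -1.26 to -1.12 in control SHPCs and from -1.25 to -0.88 in BM-MC SHPCs. All 5 lay below control SHPCs in MHs and 0 above, against 53.8% of all probes above 0, with a median log2 difference of -0.95. At an unadjusted p under 0.05, 2 were lower, against 8.21% of all probes. The summed signal of adipocyte markers (3 of 6 tested) was highest in both MHs, at 3.18 and 3.02, and ran from 1.66 to 2.46 in control SHPCs and from 1.93 to 2.77 in BM-MC SHPCs. The markers did not move together, as 2 lay above control SHPCs in MHs and 1 below, with log2 differences from -0.24 to 0.997. Adipoq, Plin1 and Lep, the defining adipocyte markers, were not among the tested probes. The part of these cells in the differences described here was not tested.

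**Figure D3:**
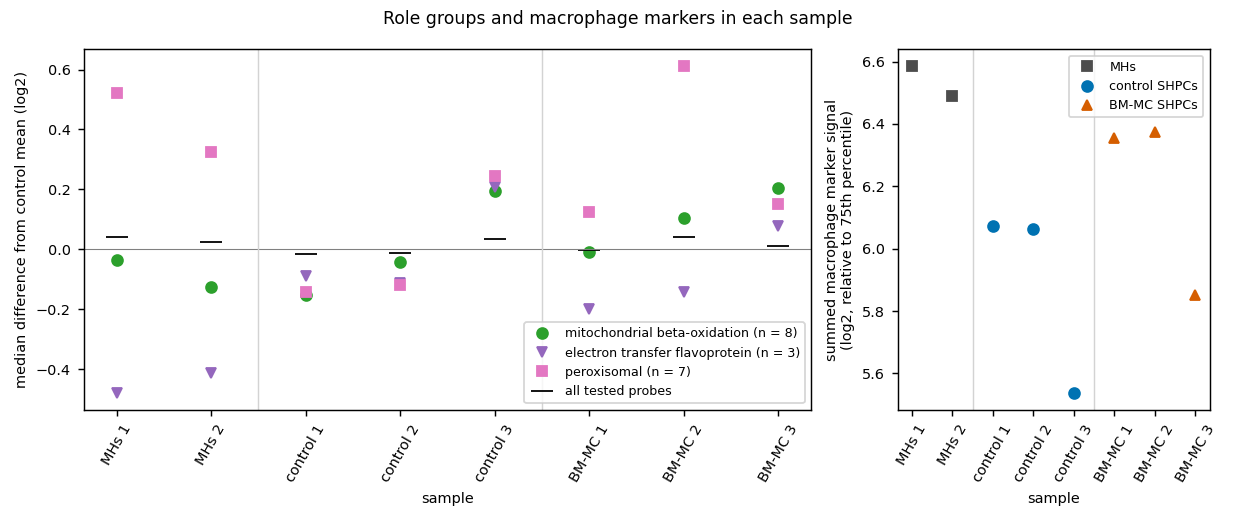
Left, median log2 difference from the mean of the control SHPCs in each sample for the mitochondrial beta-oxidation genes (circles), the electron transfer flavoprotein genes (triangles), the peroxisomal genes (squares) and all tested probes (dashes), and right, summed log2 signal of the 10 macrophage markers in each sample. Peroxisomal and electron transfer medians part in both MHs (0.52 and 0.32 against -0.48 and -0.41), and control SHPC replicate 3 has the lowest macrophage signal, at 5.54.

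A wider list of 84 genes of the same pathways, of which 81 were tested, was examined beside the 38. It covered receptors and coregulators (13 tested), further enzymes of oxidation and ketone formation (47 tested) and further PPAR-alpha targets (21 tested). With BM-MCs 0 of 81 passed the adjusted threshold, against 0.0216% of all probes, and 10 were higher and 3 lower at an unadjusted p under 0.05, counts that are read against the 10.7% and 5.92% of all probes given above. In MHs against control SHPCs 1 of 81 passed, against 1.13% of all probes. At an unadjusted p under 0.05, 15 of the 81 were higher in MHs and 6 lower, against 11% and 8.21% of all probes. The gene past the adjusted threshold was Acsm3, a medium-chain acyl-CoA synthetase of mitochondria, at -3.55 and -3.48 in MHs, at -1.95, -2.21 and -1.19 in control SHPCs and at -2.39, -2.76 and -2.24 in BM-MC SHPCs. Both MHs lay below every SHPC sample, with a log2 difference of -1.73 from control SHPCs (standard error 0.30, adjusted p = 0.0495 from limma, with a range of 0.015 to 0.26 over 22 alternatives). It did not pass without either MH sample or without control SHPC replicate 1 or 2, with differences from -1.95 to -1.70 and adjusted p from 0.064 to 0.26 in limma. Between BM-MC SHPCs and MHs 0 of 81 passed in limma, against 0.338% of all probes, and 2 were higher and 8 lower in BM-MC SHPCs at an unadjusted p under 0.05, against 7.33% and 5.95%.

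The receptor itself varied little. Ppara was at 1.17 and 1.12 in MHs, at 1.21, 1.21 and 1.12 in control SHPCs and at 0.87, 1.30 and 1.27 in BM-MC SHPCs. The difference with BM-MCs was -0.036 (95% interval -0.39 to 0.32, adjusted p = 0.92 from limma) and that of MHs from control SHPCs was -0.037 (95% interval -0.40 to 0.32, adjusted p = 0.92 from limma), so a 2-fold difference lay outside both intervals.

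**Figure D4:**
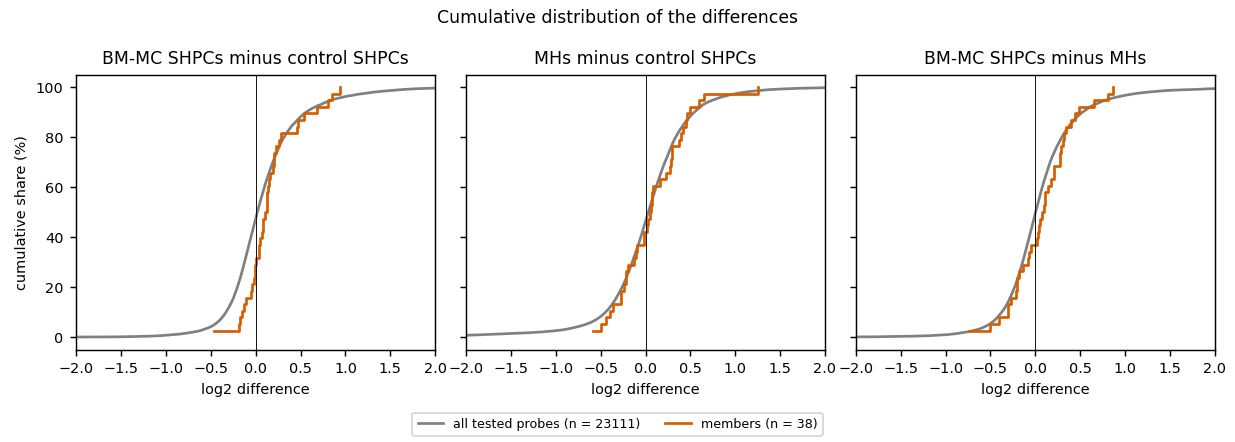
Cumulative share of the log2 differences of the 38 genes (orange steps) and of all 23111 tested probes (grey line) in each comparison, within 2 log2 units of 0. The 38 genes cross the line of 0 below the curve of all probes with BM-MCs, where 68.4% of their differences lie above 0 against 52.6%, and the curves run close together for MHs against control SHPCs.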

How the data were processed

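RNA of laser-captured cells was labelled with Cy3 and hybridised to Agilent rat arrays, and per the labels was read with Agilent Feature Extraction 10.7. The deposited values are processed intensity signals, background-subtracted by the scanner software on a linear scale and not scaled between arrays, and no column of the authors' own comparisons was used. From the deposited intensity, log2 signals minus the 75th percentile of each array were computed, with outlier spots removed and repeated spots of a probe averaged. A probe was kept if 3 or more of the 7 completely marked arrays had it well above background, which left 23111 of 45598. Probes were named through RefSeq accession (21109), symbol (6684) or synonym (424), 7420 kept the name in the file and 9961 had no gene symbol, and the members by the array's own gene name.

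All kept probes entered limma (3.58.1, under R 4.3.3), with Benjamini-Hochberg adjustment at 0.05. BM-MC SHPCs against control SHPCs were fitted on the 6 SHPC samples, and comparisons with MHs on all 8. The number of arrays limits the precision. On simulated data for BM-MC SHPCs against control SHPCs (22988 probes), 82% of 100 probes changed 4-fold and 36% of 100 changed 2-fold were called.

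The 38 genes and all lists were chosen with earlier results of these data known. Values per sample were given for genes past the adjusted threshold, for the 3 highest and 3 lowest genes of each comparison and for 13 set genes, together with Ppara and any gene of the wider list past the threshold. Acaa1b, Acot12, Acox3 and Eci1 were detailed after their values were seen. Other genes that this rule names are not reported here. Alternatives covered scaling, the filter, background correction, outlier spots, several probes, the samples and weights of the fit, blocks and leaving out samples.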

Additional observations from a re-analysis of the deposited data

How the results depend on the processing

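No gene of the 38 passed the adjusted threshold in the reported fits. For BM-MC SHPCs against control SHPCs (BC), the median difference was -0.081 with arrays scaled to their medians and -0.050 both with the set of arrays as a block and within the second set. For BM-MC SHPCs against MHs (BM), it was -0.11 with median scaling, 0.0028 without scaling and -0.12 with the set as a block. With samples left out, 0 to 1 of the 38 passed in BC (Fgf21, without control SHPC replicate 3). For MHs against control SHPCs (MC), 1 passed (Vnn1) with only those groups in the fit, with an intensity trend and within the first set. By the methods' t-test, unadjusted, 3 passed in BC, 7 in MC and 1 in BM, and of the wider list 10, 18 and 6, where 14.9%, 17.5% and 9.25% of all probes did. In MC the wider list had 1 gene past the threshold in the reported fit. It had 0 without the filter (0.298% of all probes passed), with outlier spots kept (1.06%), with the replicate block (0.688%), by the methods' t-test after Benjamini-Hochberg adjustment (0%) and on the 7 complete arrays (0.42%). It had 2 when a probe had to exceed background everywhere (1.4%), with a floor (1.45%), with the mean of probes (1.14%) and within the first set (1.8%), 3 with array weights (2.16%) and 6 with a trend (2.42%), against 1.13% in the reported fit. With samples left out it had 0 to 1 in MC, where 0.238% to 1.25% of all probes passed, and 0 to 1 in BC, where 0% to 2.29% did.

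Single genes changed sign as follows. Median scaling moved all probes by -0.19 in BC and -0.20 in BM, and the sign changes under it carry that shift. With it, in BC, Cpt1a was at -0.11, Acadm at -0.093, Hadha at -0.053, Acsl1 at -0.049, Decr1 at -0.064 and Bdh1 at -0.063, and in BM Ppara at -0.20, Acadm at -0.17, Hadha at -0.084 and Ehhadh at -0.16. With quantile normalization, Angptl4 was at 0.056 in BC and Acsl1 at 0.018 in BM. Without scaling, Angptl4 was at 0.0068 in BC, Ppara at 0.051 in MC, and Ppara at -0.080, Acadm at -0.052 and Ehhadh at -0.045 in BM. With normexp, Angptl4 was at 0.058 in BC. With the mean of probes, Ppara was at 0.072 in BC and Hadha at -0.027 in MC. With array weights, Etfdh was at 0.012 and Angptl4 at 0.039 in BC and Ppara at -0.010 in BM. On the 7 complete arrays, Angptl4 was at 0.032 in BC. With the set of arrays as a block and within the second set alike, in BC, Ppara was at 0.023, Cpt1a at -0.14, Acadm at -0.16, Hadha at -0.0087, Bdh1 at -0.11 and Fgf21 at -0.036. With that block, and within the first set, Fgf21 was at 0.013 in MC. With that block, in BM, Acadm was at -0.36, Hadha at -0.11, Ehhadh at -0.43, Fgf21 at -0.049 and Acox2 at -0.049.

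With samples left out, values in BC ran from -0.079 to 0.12 (Angptl4), -0.20 to 0.078 (Etfdh), -0.11 to 0.10 (Ppara) and -0.019 to 0.25 (Decr1). In MC they ran from -0.087 to 0.23 (Acadm), -0.039 to 0.099 (Hadha) and -0.86 to 0.32 (Fgf21). In BM they ran from -0.12 to 0.19 (Ehhadh), -0.075 to 0.14 (Ppara), -0.13 to 0.19 (Acadm) and -0.17 to 0.58 (Pdk4). The reported fits did not pair samples by replicate number. With group means removed, same-numbered control and BM-MC SHPCs correlated at 0.13, 0.078 and 0.17. Differently numbered ones correlated between -0.15 and 0.082. These values do not settle whether the numbers pair the samples. With the replicate block Ppara was at -0.016 and Acadm at -0.038 in BM, and Acsm3 in MC had an adjusted p of 0.053 in limma. The causes were not tested. The alternatives within 1 set of arrays and on the 7 complete arrays were chosen after seeing the data.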
